A study of Mus musculus with 49 samples.

Results

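The corticosteroid receptor genes and genes known to respond to glucocorticoids were followed in dopamine D1 receptor- and D2 receptor-expressing medium spiny neurons (D1-MSNs and D2-MSNs) of the mouse nucleus accumbens (NAc). The members were 6 of the 52636 genes in the count table: the receptors Nr3c1 and Nr3c2, and the response genes Fkbp5, Sgk1, Per1 and Tsc22d3. The rule names them by what they are known to do, and it was set with earlier results of these data known. All 6 were found by symbol, and each had reads in every library.

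Corticosterone, the main glucocorticoid of the mouse, enters cells and binds a pair of nuclear receptors. Nr3c1 encodes the glucocorticoid receptor, and Nr3c2 encodes the mineralocorticoid receptor, which in brain binds corticosterone with the higher affinity of the pair. Free receptors are held in the cytoplasm by Hsp90 chaperones, and bound receptors move to the nucleus, where they raise or lower transcription of target genes. Among the targets, Fkbp5 encodes a co-chaperone that lowers the hormone affinity of the glucocorticoid receptor, Sgk1 a serine/threonine kinase, Per1 a repressor of the circadian clock and Tsc22d3 the leucine zipper protein GILZ. In the NAc, glucocorticoid signalling is studied for its part in responses to stress and to drugs of abuse.

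RNA was isolated in 3 ways, each sample from a different mouse, in untreated mice on a C57BL/6J background whose ages are not given in the sources used here. For whole cell-FACS, fresh tissue was digested with papain for 45 min at 37 °C and cells were sorted by a cytoplasmic fluorophore that the Drd1 or the Drd2 promoter drives (8 D1 and 6 D2 libraries, male). For nuclear-FACS, frozen tissue was broken up mechanically and nuclei were sorted by a GFP from Drd1-cre or Drd2-cre crossed to a loxP-STOP-loxP reporter under Thy1 (6 and 5, male). For RiboTag, Drd1-cre or Drd2-cre mice with a floxed, HA-tagged Rpl22 exon gave ribosomes that were immunoprecipitated from fresh tissue (6 and 6 male, 5 and 5 female). Of the 49 samples, 47 entered the main comparisons: 1 had labels that conflict, and the sample labelled whole cell D2 number 7 matched no column of the table and was not analysed here. The lanes of 1 library were summed. All libraries were made from ribosomal RNA-depleted total RNA, and counts covered whole gene bodies, introns included.

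Depth and composition differed between methods, and a few facts of the libraries touch the results. CPM are counts scaled to a common library total. Totals ran from 10476223 to 27965357 counts in whole cell, 3701255 to 68777008 in nuclear and 24076888 to 45641342 in RiboTag libraries. The 10 genes with the most counts held 84.9 to 88.3% of each RiboTag library, 20.3 to 66.9% of nuclear D1, 5.23 to 13.9% of nuclear D2 and 2.70 to 54.5% of whole cell libraries. A background rate, the CPM by library total per kilobase over 1429 olfactory and vomeronasal receptor genes, whose products work in the nose, was 0.0653 to 0.411 in whole cell, 0.00452 to 0.174 in nuclear D1, 0.254 to 0.409 in nuclear D2 and at most 0.000492 in RiboTag libraries. The whole cell and RiboTag libraries followed their cell type labels: Drd1 was 17.7 to 122 CPM in whole cell D1 against 0.132 to 5.83 in D2, and all 5 D1 and all 5 D2 markers tested were called in the direction of the label in both methods. The nuclear libraries followed them less clearly, as Drd1 was 4.54 to 21.6 CPM in D1 against 0.757 to 2.29 in D2, while Drd2 overlapped (33.5 to 108 against 59.8 to 141 CPM) and Penk, a D2 marker, was higher in the libraries labelled D1 (32.3 to 257 against 2.89 to 22.7 CPM). The summed level of 8 astrocyte markers was 333 to 988 CPM in nuclear D1 and 109 to 206 CPM in nuclear D2 libraries. In RiboTag male libraries it was 142 to 187 CPM in D1 and 81.5 to 116 in D2. Slc17a7, a marker of glutamatergic neurons, was 42.9 to 99.9 CPM in RiboTag male D1 and 2.06 to 25.0 in D2, and 30.4 to 82.8 against 2.29 to 16.2 in female libraries. Of 3 oligodendrocyte markers tested in RiboTag male libraries, 2 were called higher in D2. The part of these in the RiboTag values was not tested. Of the RiboTag libraries labelled male, 6 (4 D1 and 2 D2) had more counts of Xist than of Y-linked genes. The main tests of the members and of the receptor ratio are given with and without them. The gene lists and the correlations include them.

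The promoters that carry matches to hormone or clock elements are shown here because the receptors act by binding DNA near their target genes. RefSeq (GRCm38.p6) listed 13 promoters for 5 of the members, all but Nr3c1. In the 250 bases before each start, both strands were searched for the inverted repeat that glucocorticoid and mineralocorticoid receptors share (GNACA and TGTNC with any 3 bases between them), for its single arm AGAACA, for the E-box CACGTG that clock proteins bind, and for the cyclic AMP response element TGACGTCA. The single arm may lie inside the longer repeat. The repeat matched 1 of the 13 promoters, an Sgk1 start, against 0.387% of 32851 promoters of the same length. The single arm matched 4 (3 of 6 for Sgk1 and 1 of 3 for Tsc22d3; 16.1% of all), CACGTG matched 3 (6.02% of all) and TGACGTCA matched 0 (1.55% of all). Capitals mark the repeat or CACGTG, 5′ to 3′ on the gene's strand, in 3 promoters:
Sgk1, chr10:21993640-21993889, plus strand: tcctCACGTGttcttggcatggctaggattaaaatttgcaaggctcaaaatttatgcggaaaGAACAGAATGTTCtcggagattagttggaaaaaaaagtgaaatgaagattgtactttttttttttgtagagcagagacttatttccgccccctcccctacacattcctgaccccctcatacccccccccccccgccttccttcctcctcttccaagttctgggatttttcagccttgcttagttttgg
Per1, chr11:69098699-69098948, plus strand: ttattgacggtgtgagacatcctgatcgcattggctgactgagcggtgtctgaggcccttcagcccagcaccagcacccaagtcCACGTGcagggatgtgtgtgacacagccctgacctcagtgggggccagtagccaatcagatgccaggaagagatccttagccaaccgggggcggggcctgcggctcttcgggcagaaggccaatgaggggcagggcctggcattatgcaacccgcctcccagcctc
Fkbp5, chr17:28486150-28486399, minus strand: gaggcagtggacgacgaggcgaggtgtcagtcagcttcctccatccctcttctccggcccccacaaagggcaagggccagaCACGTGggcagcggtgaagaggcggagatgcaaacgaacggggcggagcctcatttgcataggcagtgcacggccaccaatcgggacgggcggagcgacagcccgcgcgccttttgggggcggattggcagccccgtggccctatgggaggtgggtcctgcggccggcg
In the Sgk1 promoter the repeat began 188 bases before the start, and CACGTG began 246 bases before it. CACGTG began 166 bases before the start in Per1 and 169 bases before it in Fkbp5. A match describes the letters in this window and is no measurement of binding.

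The members lie on 6 chromosomes (GRCm38) and differ widely in how much of the gene span is exonic. Nr3c1 (ENSMUSG00000024431; chromosome 18, 39410545 to 39519421, minus strand) spans 109 kb, of which 7.06% is exonic, and Nr3c2 (ENSMUSG00000031618; chromosome 8, 76899442 to 77245012, plus strand) spans 346 kb, of which 1.87% is exonic. Fkbp5 (ENSMUSG00000024222; chromosome 17, 28399094 to 28517527, minus strand) spans 118 kb with 7.99% in exons. Sgk1 (ENSMUSG00000019970; chromosome 10, 21882184 to 21999903, plus strand) spans 118 kb with 4.16% in exons. Per1 (ENSMUSG00000020893; chromosome 11, 69095217 to 69109960, plus strand) is the compact one, at 14.7 kb with 38.2% in exons. Tsc22d3 (ENSMUSG00000031431; chromosome X, 140539528 to 140600659, minus strand) spans 61.1 kb with 7.10% in exons. Nr3c2 overlaps Gm10649 and Fkbp5 overlaps Gm22146, and because counting ignored strand, reads in the shared stretches cannot be told apart.

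Levels are given as CPM scaled over all 47 libraries with TMM, a scaling that assumes most genes do not differ, as mean ± SD. Nr3c1, the glucocorticoid receptor gene, was 24.6 ± 9.77 CPM (n = 8) in whole cell D1 libraries, with a lowest value of 11.5, a median of 22.6 and a highest value of 36.5. In whole cell D2 libraries it was 23.5 ± 7.64 (n = 6; lowest 16.1, median 19.8, highest 34.2). The cell types overlapped almost fully in this method. In nuclear D1 libraries Nr3c1 was 30.9 ± 6.61 (n = 6; lowest 21.8, median 31.2, highest 41.1), and the 5 nuclear D2 libraries were at 14.04, 19.0, 16.6, 11.7 and 13.7 (mean 15.01 ± 2.82). No nuclear D2 library reached the lowest nuclear D1 library on this scale. The share of all genes whose nuclear groups do not overlap was not counted. Between these groups 20.6% of all genes were called lower in D2, without the FPKM filter described below. RiboTag levels were tighter: 36.7 ± 1.71 in male D1 (n = 6; 33.4 to 38.4, median 37.0), 37.4 ± 2.71 in male D2 (n = 6; 34.8 to 41.7, median 36.5), 34.3 ± 1.71 in female D1 (34.2, 34.2, 35.6, 31.6 and 36.0) and 37.6 ± 3.53 in female D2 (40.3, 33.2, 40.5, 39.8 and 34.4). All 4 RiboTag groups overlapped each other.

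Nr3c2, the mineralocorticoid receptor gene, was higher in both sorted preparations than on ribosomes. It was 65.6 ± 13.97 CPM in whole cell D1 (n = 8; lowest 51.8, median 63.7, highest 95.7) and 91.8 ± 30.1 in whole cell D2 (n = 6; lowest 55.3, median 92.2, highest 144). In nuclear D1 it was 86.8 ± 13.9 (n = 6; lowest 72.8, median 84.7, highest 107), and the nuclear D2 libraries were at 62.2, 61.4, 64.2, 51.8 and 47.3 (mean 57.4 ± 7.37). Again the nuclear groups did not overlap, with the limit given for Nr3c1. RiboTag male libraries had 35.0 ± 4.19 in D1 (n = 6; 28.8 to 41.9, median 34.7) and 38.5 ± 2.32 in D2 (n = 6; 36.2 to 42.4, median 37.8). Female D1 libraries were at 33.0, 36.7, 27.0, 39.0 and 46.2 and female D2 libraries at 52.2, 39.9, 42.5, 43.7 and 47.9. In both sexes the RiboTag cell types overlapped, and all male RiboTag libraries lay below every whole cell and nuclear library on this scale. The share of all genes that separate this way was not counted. In the later fit of male libraries, 59.4% of all genes were called lower on ribosomes than in whole cell in either cell type. Against nuclear libraries 59.5% were called lower in D1 and 60.1% in D2.

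Fkbp5, the co-chaperone of the receptor, varied least between methods. Its means were 19.0 ± 2.04 CPM in whole cell D1 (n = 8; 16.7 to 21.7, median 18.8) and 19.9 ± 4.43 in whole cell D2 (n = 6; 12.6 to 25.4, median 20.3). In nuclear D1 it was 17.2 ± 4.31 (n = 6; 9.94 to 21.4, median 18.6), and nuclear D2 libraries were at 21.4, 18.7, 20.9, 21.9 and 24.1. RiboTag male libraries had 19.3 ± 2.27 in D1 (n = 6; 15.9 to 22.5, median 19.5) and 22.8 ± 3.05 in D2 (n = 6; 18.3 to 26.9, median 23.2). The 8 groups overlapped, with female RiboTag means of 21.8 ± 2.50 in D1 and 21.3 ± 1.70 in D2 (n = 5 each).

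Sgk1, the kinase gene with the hormone element printed above, had its highest mean in nuclear D1 libraries. It was 33.4 ± 13.9 CPM in whole cell D1 (n = 8; lowest 20.5, median 31.5, highest 63.4) and 42.5 ± 5.38 in whole cell D2 (n = 6; lowest 34.8, median 42.3, highest 49.0). Nuclear D1 libraries had 56.7 ± 17.3 (n = 6; lowest 37.7, median 54.6, highest 82.1) and nuclear D2 libraries were at 29.9, 30.1, 30.9, 21.9 and 21.6 (mean 26.9 ± 4.68). These nuclear groups did not overlap either, with the same limit. On ribosomes it was 17.5 ± 4.203 in male D1 (n = 6; 14.2 to 25.3, median 16.3), 19.9 ± 3.30 in male D2 (n = 6; 15.1 to 25.2, median 19.3), 19.5 ± 3.87 in female D1 and 21.7 ± 3.01 in female D2 (n = 5 each).

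Per1, the clock repressor, had its highest means on ribosomes. It was 7.94 ± 2.74 CPM in whole cell D1 (n = 8; lowest 4.58, median 7.99, highest 11.3) and 11.8 ± 3.44 in whole cell D2 (n = 6; lowest 8.33, median 11.0, highest 17.9). Nuclear D1 libraries had 20.2 ± 7.03 (n = 6; lowest 10.7, median 18.0, highest 29.1), and nuclear D2 libraries were at 5.59, 12.0, 11.7, 6.91 and 14.2. On ribosomes it was 31.2 ± 2.99 in male D1 (n = 6; 27.6 to 35.2, median 31.4) and 35.3 ± 4.79 in male D2 (n = 6; 27.8 to 39.8, median 36.8). Female means were 31.3 ± 1.60 in D1 and 32.4 ± 3.60 in D2 (n = 5 each). On this scale all 22 RiboTag libraries were above every whole cell library, while 2 nuclear D1 libraries reached into the RiboTag range. The share of all genes that separate this way was not counted. In the later fit of male libraries, 21.5% of all genes in D1 and 22% in D2 were called higher on ribosomes than in whole cell. With total counts as the scale, Per1 was lower on ribosomes there (log2 fold change -1.52 in D1 and -1.71 in D2).

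Tsc22d3, the GILZ gene, had the fewest reads. It was at 3.39 ± 0.642 CPM in whole cell D1 (n = 8; 2.35 to 4.29, median 3.46), 3.75 ± 1.57 in whole cell D2 (n = 6; 1.97 to 5.85, median 3.68) and 6.18 ± 2.70 in nuclear D1 libraries (n = 6; 2.85 to 9.83, median 6.57). The nuclear D2 libraries were at 4.49, 5.25, 6.42, 4.86 and 5.30. In RiboTag libraries it rested on 11 to 46 counts each, with group means of 2.30 to 2.72 CPM. The background rate times the gene span predicted a median of 100% of its whole cell counts and 87.8% of its nuclear D2 counts. By this rate over all receptor genes, these levels were not separable from background. In nuclear D1 libraries the median was 18.1%, with a range from 5.67 to 106%. With the 9 receptor genes on chromosome X alone, the predicted share of Tsc22d3 was a median of 60.5% in whole cell D1, 29.7% in whole cell D2, 6.16% in nuclear D1 and 55.2% in nuclear D2 libraries. For the other members the predicted share differed between the nuclear groups. Its median was 8.36% in nuclear D1 and 57.2% in nuclear D2 libraries for Nr3c1, 9.56% and 51.4% for Nr3c2, 17.6% and 47.8% for Fkbp5, 5.38% and 36.4% for Sgk1, and 1.91% and 9.64% for Per1. In RiboTag libraries it was at most 3.93% for any member.

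**Figure D1:**
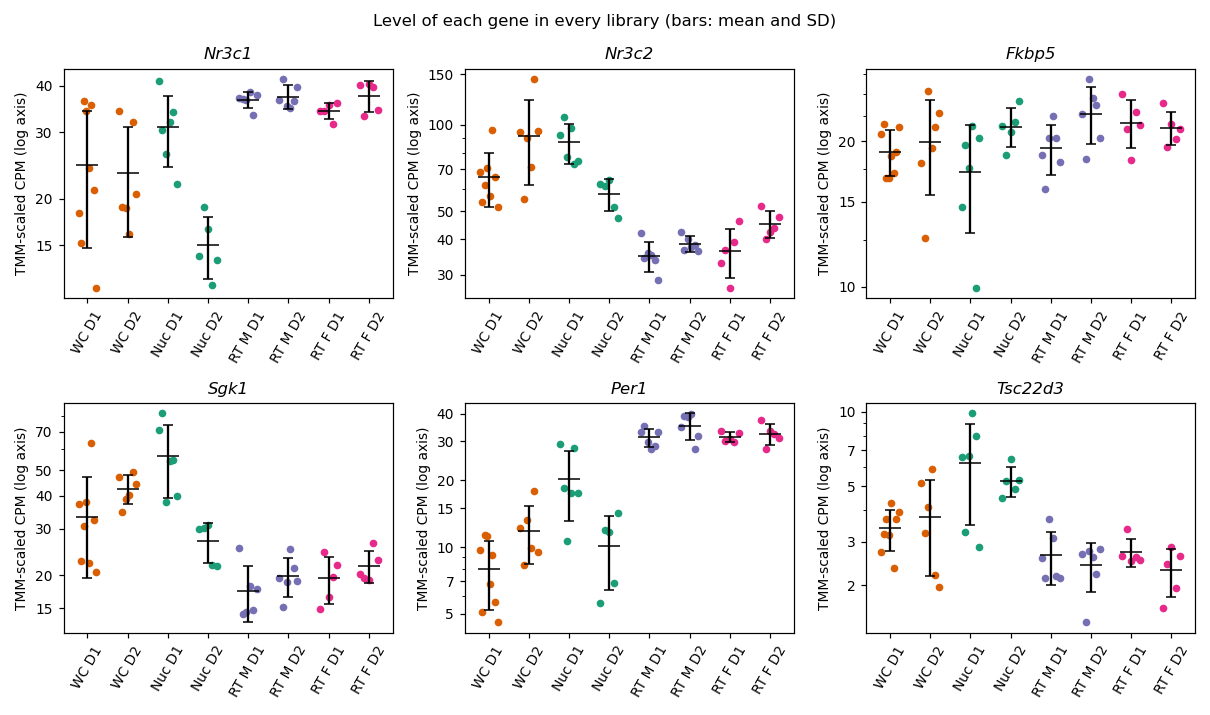
TMM-scaled CPM (log axis) of each gene in every library, with the group mean and SD as bars; WC is whole cell, Nuc nuclear, RT M and RT F RiboTag male and female. Nr3c2 and Sgk1 have their lowest means in the RiboTag groups, Per1 is highest there (27.6 to 39.8 CPM), and the nuclear D1 and D2 libraries do not overlap for Nr3c1, Nr3c2 and Sgk1. The share of all genes whose nuclear groups do not overlap was not counted.

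Levels can be compared between genes only per unit of length. Per kilobase of gene span, Per1 was highest and Tsc22d3 lowest in all 8 groups. In whole cell D1 libraries the order of mean CPM per kilobase of span was Per1 (0.538), Sgk1 (0.283), Nr3c1 (0.226), Nr3c2 (0.190), Fkbp5 (0.160) and Tsc22d3 (0.0554), and the neighbours from Sgk1 to Fkbp5 differed by less than the larger of their SDs. In RiboTag male D1 libraries the order was Per1 (2.12), Nr3c1 (0.337), Fkbp5 (0.163), Sgk1 (0.148), Nr3c2 (0.101) and Tsc22d3 (0.0431), and there only Fkbp5 and Sgk1 differed by less than that. With summed exons as the length, the order changed: Nr3c2 was highest in all 4 sorted groups (10.1 and 14.2 CPM per exonic kilobase in whole cell D1 and D2, 13.4 and 8.86 in nuclear D1 and D2). In RiboTag male D1 libraries Per1 (5.55) and Nr3c2 (5.40) were then level within their spread. Per exonic kilobase Nr3c2 was above Nr3c1 in all 8 groups, while per kilobase of span it was above Nr3c1 in whole cell D2 and nuclear D2 libraries only.

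Between D2- and D1-MSNs, the comparison for which the libraries were made, no member was called in any of the 4 sets, at an adjusted p of at most 0.05 by edgeR's quasi-likelihood test. The filter was on FPKM, which scales fragments by gene span and by a library size, here taken from the size factors of the tool DESeq2. It kept Sgk1 and Per1 in nuclear, Nr3c1, Nr3c2, Sgk1 and Per1 in whole cell, and Nr3c1 and Per1 in both RiboTag sets. Among all genes tested, 16.1% were called in nuclear, 1.08% in whole cell, 9.3% in RiboTag male and 4.52% in RiboTag female libraries. Log2 fold changes below are positive where D2 was higher, with their SE. In bulk samples, fewer cells of a type and less RNA per cell cannot be told apart.

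In whole cell libraries Per1 was 0.50 ± 0.16 higher in D2 on the log2 scale (adjusted p = 0.116, edgeR) and Nr3c2 was 0.36 ± 0.16 higher (adjusted p = 0.292). Those were the 2 members with an unadjusted p under 0.05. Sgk1 was at 0.31 ± 0.15 (adjusted p = 0.381) and Nr3c1 at -0.16 ± 0.15 (adjusted p = 0.747). With DESeq2 both Per1 (0.65, adjusted p = 0.00405) and Nr3c2 (0.48, adjusted p = 0.0414) passed, where 2.81% of all genes were called higher in D2. With DESeq2's size factors in edgeR, Per1 alone passed (0.65, adjusted p = 0.0319), where 0.893% were called higher. Less the median over all genes tested, Per1 was at 0.59 under TMM and 0.61 under those size factors. In 3 whole cell D2 libraries 10 genes held 20% or more of all counts, and without them Per1 was at 0.71 (adjusted p = 0.0654). Without whole cell D2 library 1 alone, Per1 passed (0.68, adjusted p = 0.0264). The summed level of 8 MSN markers was 366 to 1555 CPM in whole cell D1 and 740 to 2815 CPM in whole cell D2 libraries, and its part in these differences was not tested.

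In nuclear libraries the 2 members that passed the filter lay at 0 within error: Sgk1 at -0.02 ± 0.15 (adjusted p = 0.947) and Per1 at 0.03 ± 0.19 (adjusted p = 0.933), with no unadjusted p under 0.05 by edgeR and no call by DESeq2. The picture changed with the set of genes used for scaling. Without the FPKM filter all 6 could be tested, and 4 were called lower in D2, where 20.6% of all genes were: Nr3c1 (-1.15 ± 0.22, adjusted p = 0.00565), Nr3c2 (-0.69 ± 0.17, 0.0108), Sgk1 (-1.19 ± 0.25, 0.00625) and Per1 (-1.12 ± 0.33, 0.0270). Fkbp5 was at 0.24 ± 0.17 (adjusted p = 0.277) and Tsc22d3 at -0.32 ± 0.31 (0.397). When the same genes were scaled on those that pass the filter, Fkbp5 alone was called (1.28 ± 0.28, adjusted p = 0.0204), in the other direction, where 36.6% of all genes were called higher in D2. The median over all genes was 0.26 under the first scaling and 1.26 under the second. Less that median, the values were alike under both: Nr3c1 -1.41 and -1.29, Nr3c2 -0.95 and -0.85, Sgk1 -1.44 and -1.28, Per1 -1.38 and -1.23, and Fkbp5 -0.02 and 0.02. Rescaling shifts all genes by nearly the same amount, so this likeness follows from the subtraction and is no check of the members. Beside this, nuclear D1 libraries had the higher astrocyte sum given above, an MSN marker sum of 866 to 2166 against 325 to 822 CPM in D2, and the lower background rate and predicted shares given above, and the part of these in the members' values was not tested.

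On ribosomes the cell types were close. In male RiboTag libraries Nr3c1 was at 0.01 ± 0.06 (adjusted p = 0.936) and Per1 at 0.17 ± 0.09 (adjusted p = 0.262), and in female libraries Nr3c1 was at 0.08 ± 0.07 (adjusted p = 0.622) and Per1 at 0.00 ± 0.07 (adjusted p = 0.998), all by edgeR. Neither gene had an unadjusted p under 0.05 in either sex, and DESeq2 called neither. Without the 6 male libraries against their label, Nr3c1 was at -0.05 ± 0.09 (adjusted p = 0.856) and Per1 at 0.14 ± 0.12 (adjusted p = 0.642). Without the FPKM filter 3 more members could be tested. Fkbp5 was then at 0.23 ± 0.08 in male (adjusted p = 0.0906, and an unadjusted p under 0.05) and at -0.07 ± 0.08 in female libraries (adjusted p = 0.791), and Nr3c2 at 0.13 ± 0.07 (adjusted p = 0.312) and 0.27 ± 0.10 (adjusted p = 0.186). Sgk1 was at 0.18 ± 0.12 and 0.11 ± 0.12, and Tsc22d3 was not tested for want of counts.

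**Figure D2:**
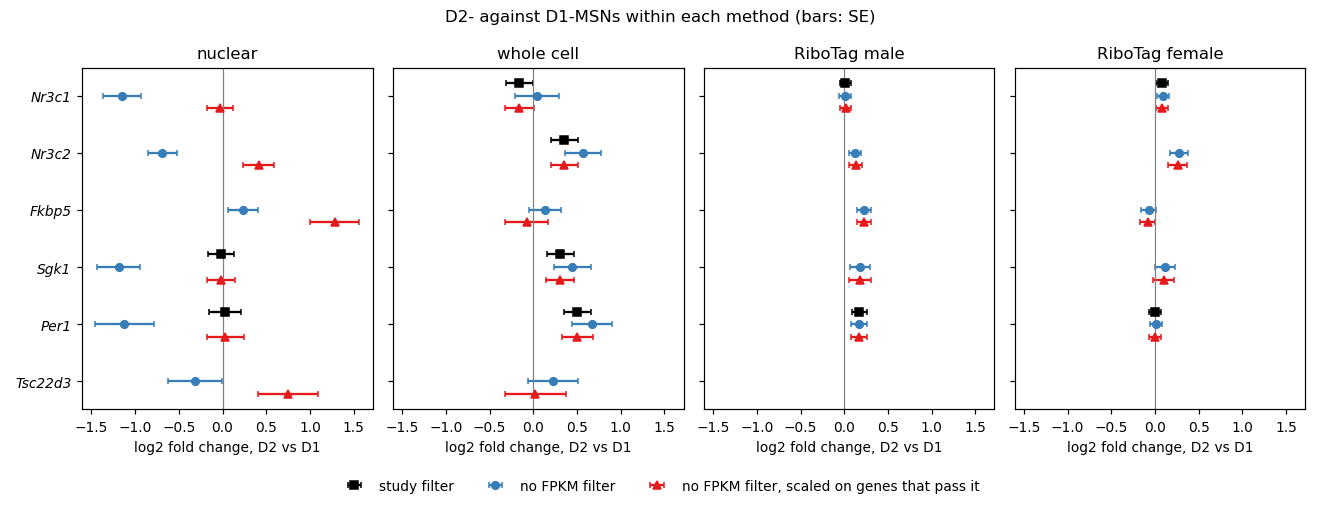
Log2 fold change (D2 over D1) with SE of each gene within nuclear, whole cell, RiboTag male and RiboTag female libraries, under the FPKM filter (black squares), without it (blue circles) and without it but scaled on the genes that pass it (red triangles). The nuclear panel shifts most with the scaling, from -1.15 to -0.03 for Nr3c1, and the RiboTag panels shift least.

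The other genes of the pathway were read from lists that include the members. Of 23 receptor, chaperone and coregulator genes, 13 were tested in nuclear libraries, of which 1 was higher in D2 and 6 were lower, where 5.7% of all genes were higher and 10.4% lower, with a median of -0.62 against 0.03 over all genes. The lowest were the chaperones Hsp90ab1 (-2.68), Hspa8 (-2.66) and Hsp90aa1 (-2.15). None of 16 was called in whole cell libraries, where Hsp90aa1 was at -1.21 (adjusted p = 0.0520). None of 18 was called in RiboTag male and 1 of 19 in RiboTag female libraries, where it was lower in D2, as were 2.55% of all genes.

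Of 40 glucocorticoid response genes, 14, 16, 13 and 13 were tested in nuclear, whole cell, RiboTag male and RiboTag female libraries. In nuclear libraries 2 of the 14 were lower in D2, where 10.4% of all genes were: Rhob, a small GTPase (-1.86), and Glul, the glutamine synthetase of astrocytes (-1.69). In whole cell libraries none was called. Rhou, another small GTPase, was lower in D2 on ribosomes in the sets labelled male (-0.76, adjusted p = 0.0131, edgeR) and female (-1.07, adjusted p = 0.0314, edgeR). It was the 1 call of 13 in each, where 5.22% and 2.55% of all genes were lower. The set labelled male includes the libraries against their label, and no value of Rhou without them is given here. The median of the list was -0.28 in nuclear libraries, against 0.03 over all genes, and -0.12 in whole cell libraries, against -0.09.

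Of 18 clock genes, Per2, a paralog of Per1, was higher in D2 in nuclear libraries (0.66), and 4 of the 14 tested were lower, with Dbp (-1.01), Nr1d1 (-0.89) and Bhlhe41 (-0.73) the furthest. Dbp (0.41, adjusted p = 0.0166) and Hlf (0.27, adjusted p = 0.00425), a pair of related transcription factors, were higher in D2 among the 13 tested in RiboTag female libraries, where 1.97% of all genes were. The 4 of 14 lower in nuclear libraries stand beside the 10.4% over all genes, and the 1 of 14 higher beside 5.7%. None of 12 passed in RiboTag male and none of 15 in whole cell libraries. A list of 16 activity-regulated genes had 1 call of 11 tested in nuclear (Egr1, -1.47), none of 13 in whole cell, 1 of 11 in RiboTag male (Nr4a2, -3.36) and 2 of 11 in RiboTag female libraries (Nr4a2, -4.03, and Nr4a3, -0.49). These were named after their values were seen, and the shares lie beside 16.1%, 1.08%, 9.3% and 4.52% called over all genes.

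Between methods, the male libraries of all 3 were fitted together over 29902 genes without the FPKM filter, so that all 6 members were tested. Fkbp5 was not called in any of the 6 comparisons, and against whole cell libraries the receptors moved apart: Nr3c1 was higher on ribosomes and Nr3c2 lower. In D1, RiboTag against whole cell gave 0.67 ± 0.21 for Nr3c1 (adjusted p = 0.00373), -0.81 ± 0.16 for Nr3c2 (3.85e-05), -0.84 ± 0.21 for Sgk1 (0.000570) and 2.07 ± 0.23 for Per1 (8.45e-10), by edgeR. These were 2 members higher, where 21.5% of all genes were, and 2 lower, where 59.4% were. Fkbp5 was at 0.13 (adjusted p = 0.414) and Tsc22d3 at -0.25 (0.370). In D2 the same 4 were called: Nr3c1 0.72 ± 0.22 (0.00412), Nr3c2 -1.20 ± 0.17 (1.68e-07), Sgk1 -1.04 ± 0.22 (8.47e-05) and Per1 1.63 ± 0.25 (6.21e-07), where 22% of all genes were higher and 59.4% lower. Most genes were thus lower on ribosomes under this scaling.

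Against nuclear libraries the RiboTag values depended on the cell type. In D1, Per1 was higher (0.70 ± 0.25, adjusted p = 0.0115, edgeR; 20.2% of genes higher), and Nr3c2 (-1.24 ± 0.17, 1.28e-07), Sgk1 (-1.63 ± 0.23, 1.13e-07) and Tsc22d3 (-1.15 ± 0.28, 0.000432) were lower (59.5% of genes lower). In D2, Nr3c1 (1.43 ± 0.24, 1.92e-06) and Per1 (1.92 ± 0.27, 6.88e-08) were higher (26.4% higher), and Nr3c2 (-0.46 ± 0.18, 0.0169) and Tsc22d3 (-1.0003 ± 0.28, 0.00162) were lower (60.1% lower). Sgk1 was not called there (-0.32, adjusted p = 0.190), nor was Nr3c1 in D1 (0.32, 0.191). In nuclear D2 libraries the background rate predicted a median of 87.8% of the counts of Tsc22d3, 51.4% of Nr3c2 and 57.2% of Nr3c1. With the background subtracted, the D2 value of Tsc22d3 turned positive, as given in the closing section.

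Between nuclear and whole cell libraries, Sgk1 was the 1 member called in both cell types, in opposite directions. In D1, Sgk1 (0.79 ± 0.20, adjusted p = 0.00507), Per1 (1.37 ± 0.23, 3.11e-05) and Tsc22d3 (0.90 ± 0.25, 0.00873) were higher in nuclear libraries by edgeR, where 10.8% of all genes were higher and 8.46% lower. Nr3c2 was at 0.43 ± 0.16 (adjusted p = 0.0508) and Nr3c1 at 0.36 ± 0.21 (0.214). In D2, Nr3c1 (-0.71 ± 0.24, 0.0269), Nr3c2 (-0.74 ± 0.18, 0.00247) and Sgk1 (-0.72 ± 0.23, 0.0215) were lower in nuclear libraries, where 3.66% were higher and 16.5% lower. With DESeq2, or with its size factors, 1 of these 3 was called, and without nuclear D2 library 5 or 7 it was also 1 (Nr3c1 at -0.63 and -0.69, adjusted p = 0.0913 and 0.0566, and Sgk1 at -0.65 and -0.67, adjusted p = 0.0729 and 0.0611).

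With total counts as the scale, 17 of the 36 values of the 6 members in the 6 method comparisons changed sign. These were 3 of 6 in each RiboTag comparison, 4 of 6 for nuclear against whole cell in D1, among them Sgk1 (-0.38) and Tsc22d3 (-0.24), and 1 of 6 in D2. Under this scale all 6 members were lower on ribosomes in every comparison, and the median over all genes was -5.45 in place of -1.86 for RiboTag against whole cell in D1. Less that median the members barely moved. A change of scale shifts all genes by nearly the same amount, so this is no check of the members against the scaling. Nr3c1 stood 2.53 above the median gene under both scalings, Per1 3.93 and 3.92 above it, Fkbp5 1.99 and 1.88, Tsc22d3 1.61 and 1.504, Nr3c2 1.05 and 1.01, and Sgk1 1.02 and 1.03. Less the median of the 19312 protein-coding genes, the values under TMM were 1.48 for Nr3c1, 2.87 for Per1, 0.94 for Fkbp5, 0.56 for Tsc22d3, 0.00 for Nr3c2 and -0.03 for Sgk1. Nr3c2 and Sgk1 were thus at the level of the typical protein-coding gene in this comparison, and the other 4 were above it.

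These method differences moved with the exonic share of a gene. Over protein-coding genes, the median of RiboTag against whole cell in D1 was -1.97 for the 2346 genes with less than 5% of their span in exons and 0.02 for the 5858 genes with more than 30% (Spearman's rho 0.21 across genes, which are not independent replicates). Nr3c2 (1.87% exonic) and Sgk1 (4.16%) belong to the first class and Per1 (38.2%) to the second. All 3 stood above the median of their class, and the part of exonic share in the members' values was not tested.

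Without the 6 male libraries against their label, 2 D1 and 4 D2 RiboTag libraries were left. In D1 against whole cell, Nr3c1 (0.96, adjusted p = 0.0163) and Per1 (2.38, 1.98e-06) were still called, while Nr3c2 (-0.64, 0.0566) and Sgk1 (-0.61, 0.126) were not. In D2 against whole cell, Nr3c1 (0.93), Nr3c2 (-0.88), Sgk1 (-0.66) and Per1 (1.91) were called, and so was Fkbp5 (0.64, adjusted p = 0.00241). Against nuclear libraries, Nr3c2 (-1.19), Sgk1 (-1.54) and Tsc22d3 (-1.24) were called in D1, and Nr3c1 (1.64), Fkbp5 (0.59) and Per1 (2.21) in D2, where Nr3c2 was at -0.15 (adjusted p = 0.558). The shares of all genes called without these libraries are not given here. With all libraries, 21.5% of genes were higher and 59.4% lower against whole cell in D1, and 22% and 59.4% in D2. Against nuclear they were 20.2% and 59.5% in D1, and 26.4% and 60.1% in D2.

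**Figure D3:**
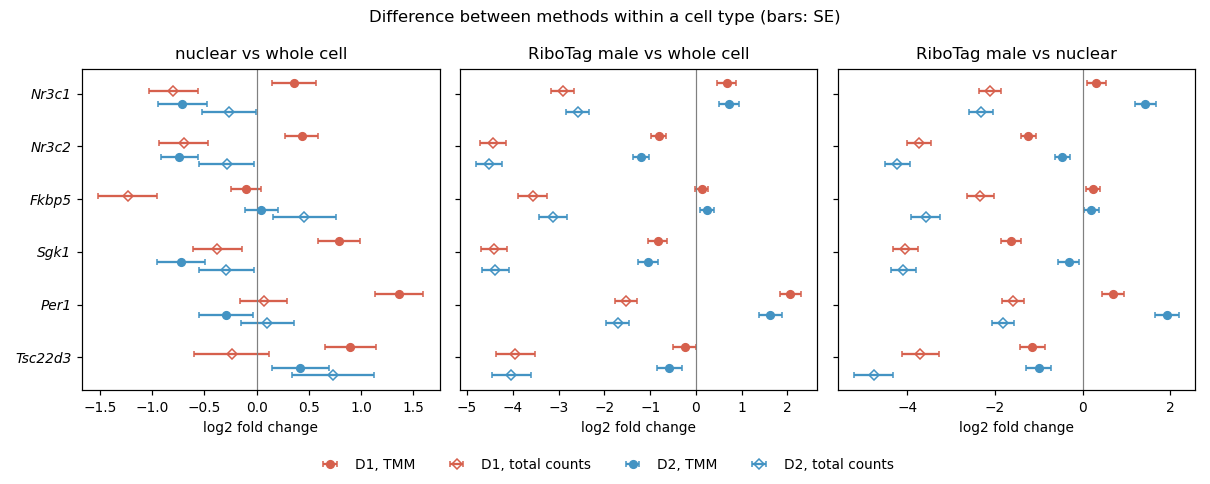
Log2 fold change with SE between methods, within D1 (red) and D2 (blue), under TMM (filled circles) and total counts (open diamonds). Under TMM, Nr3c1 and Per1 lie to the right of 0 and Nr3c2 to the left in both RiboTag panels, and total counts move every gene in those panels to the left by a similar amount.

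Whether the D2 to D1 difference itself changed with the method was tested by the interaction in the same fit. For nuclear minus whole cell it was lower for Nr3c1 (-1.07 ± 0.31, adjusted p = 0.0146), Nr3c2 (-1.17 ± 0.24, 0.000843), Sgk1 (-1.51 ± 0.31, 0.000817) and Per1 (-1.66 ± 0.35, 0.00103), by edgeR, where 15.8% of all genes were called lower. For RiboTag minus nuclear it was higher for the same 4 (Nr3c1 1.11 ± 0.33, 0.0187; Nr3c2 0.78 ± 0.25, 0.0303; Sgk1 1.31 ± 0.32, 0.00706; Per1 1.22 ± 0.36, 0.0196), where 12.9% were called higher. The nuclear libraries enter both. For RiboTag minus whole cell 0 members were called and 0 had an unadjusted p under 0.05 by edgeR, DESeq2 called 0, and 0.087% of all genes were called.

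These interactions turned in sign for Nr3c1, Nr3c2, Sgk1 and Per1 with total counts as the scale, under which the median over all genes was 1.88 for nuclear minus whole cell, against 0.33 under TMM. Less that median the values were alike: Nr3c1 -1.40 under TMM and -1.35 under total counts, Nr3c2 -1.50 and -1.47, Sgk1 -1.84 and -1.80, and Per1 -1.99 and -1.85. Fkbp5 was at -0.18 and -0.19. As above, this likeness follows from the subtraction and is no check against the scaling. In 3 nuclear D1 libraries 10 genes held 60% or more of all counts. Without them Nr3c2 (-1.26, adjusted p = 0.00306), Sgk1 (-1.52, 0.00385) and Per1 (-1.26, 0.0239) were called for nuclear minus whole cell and Nr3c1 was not (-0.98, 0.0640). Without the RiboTag libraries against their label, the RiboTag minus nuclear values were 1.18, 1.05, 1.60 and 1.35 for Nr3c1, Nr3c2, Sgk1 and Per1, and none was called (adjusted p from 0.112 to 0.171). Without nuclear D2 library 5 the calls of Nr3c2 (0.74, adjusted p = 0.0650) and Per1 (1.11, 0.0527) for RiboTag minus nuclear were lost, and without library 7 that of Nr3c2 (0.73, 0.0568).

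The balance of the receptors was read within each library, where no scaling between libraries enters. The log2 ratio of Nr3c1 to Nr3c2 counts per kilobase of span was 0.17 ± 0.47 (SD, n = 8) in whole cell D1, -0.30 ± 0.36 (n = 6) in whole cell D2, 0.17 ± 0.30 (n = 6) in nuclear D1 and -0.28 ± 0.20 (n = 5) in nuclear D2 libraries. On ribosomes it was 1.74 ± 0.19 and 1.62 ± 0.16 in male D1 and D2 (n = 6 each), and 1.60 ± 0.30 and 1.40 ± 0.17 in female D1 and D2 (n = 5 each). Counted per kilobase of span, the glucocorticoid receptor gene thus had 0.813 to 1.12 times the reads of the mineralocorticoid receptor gene in the sorted preparations and 2.64 to 3.35 times on ribosomes. Per exonic kilobase the same ratios were 0.216 to 0.298 and 0.702 to 0.889. Counts include introns, and 7.06% of the Nr3c1 span is exonic against 1.87% of the Nr3c2 span. Genes with a low exonic share were lower on ribosomes, as given above, and the part of exonic share in this ratio was not tested.

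No RiboTag library overlapped any whole cell or nuclear library in this ratio. RiboTag male exceeded whole cell by 1.58 in D1 (adjusted p = 0.00533, exact permutation test, two-sided, adjusted over 8 comparisons of methods and sexes) and by 1.92 in D2 (0.00577), and nuclear by 1.58 in D1 (0.00577) and 1.90 in D2 (0.00866). The unadjusted p of each was the smallest its design allows. Nuclear and whole cell libraries were 0.00 apart in D1 and 0.02 apart in D2 (adjusted p = 0.993 in both, exact permutation test). With the background rate subtracted from each count they were 0.14 apart in D1 and -0.38 in D2 (adjusted p = 0.807 and 0.450, exact permutation test). Without the libraries against their label the groups still did not overlap (1.69, 1.68, 1.82 and 1.80), with adjusted p of 0.119, 0.143, 0.0635 and 0.0635 from as few as 2 libraries.

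Between cell types, the ratio was lower in D2 in all 4 sets, and none passed the exact permutation test after adjustment over the 4. The differences were -0.45 in nuclear (p = 0.0216, adjusted p = 0.0866, exact), -0.46 in whole cell (p = 0.0686, adjusted p = 0.137, exact), -0.12 in RiboTag male (p = 0.260, adjusted p = 0.260, exact) and -0.20 in RiboTag female libraries (p = 0.246, adjusted p = 0.260, exact). The libraries of the cell types overlapped in each set. With the background subtracted, the nuclear difference was -0.99 (adjusted p = 0.0519, exact). Without the male libraries against their label, the RiboTag male difference was -0.33 and the groups did not overlap (4 and 2 libraries, adjusted p = 0.178, exact). Without female D1 library 4 the RiboTag female difference was -0.09 (adjusted p = 0.492, exact).

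**Figure D4:**
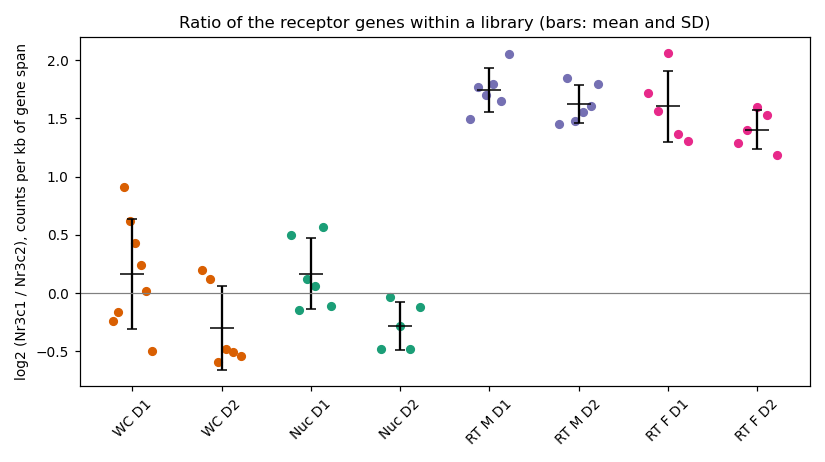
Log2 ratio of Nr3c1 to Nr3c2 counts per kilobase of gene span in each library, with group mean and SD; WC is whole cell, Nuc nuclear, RT M and RT F RiboTag male and female. The RiboTag libraries lie at 1.19 and above, and the others at 0.911 and below.

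Between RiboTag libraries labelled female and those labelled male, no difference was detected for Nr3c1 or Per1, the members that passed the filter. Of the libraries labelled male, 4 of 6 in D1 and 2 of 6 in D2 went against their label. The values below compare labels and are no clean contrast of the sexes. In D1, female minus male was -0.10 ± 0.07 for Nr3c1 (adjusted p = 0.751) and 0.00 ± 0.07 for Per1 (0.999). In D2 it was -0.04 ± 0.07 for Nr3c1 (adjusted p = 0.928) and -0.17 ± 0.08 for Per1 (adjusted p = 0.681, the 1 member with an unadjusted p under 0.05). The interaction of sex and cell type was 0.07 for Nr3c1 (adjusted p = 0.930) and -0.17 for Per1 (0.808). Across all 7172 genes, edgeR called 0% in D1, 0.0976% in D2 and 0% for the interaction, with 561, 521 and 511 genes at an unadjusted p under 0.05, and DESeq2 called 1, 22 and 3 genes. Without the libraries against their label 0 members were called, but only 2 male D1 and 4 male D2 libraries were left.

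Among the 15 pairs of members in each of the 3 methods, 45 pairs in all, 1 was correlated after adjustment by both Pearson's r and Spearman's rho: Nr3c2 and Sgk1 in whole cell libraries. Over the 14 libraries, with the group mean removed, r was 0.755 (p = 1e-05, the smallest that 100000 permutations can give, adjusted p = 0.00045) and rho was 0.859 (p = 2e-05, adjusted p = 0.0009). Without the 2 libraries farthest in Nr3c2, r was 0.923. Within whole cell D1 libraries r was 0.991 (n = 8) and within whole cell D2 libraries 0.877 (n = 6). In nuclear libraries r was 0.823 (permutation adjusted p = 0.0676) and in RiboTag libraries 0.434 (adjusted p = 0.323, permutation).

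In the same whole cell libraries both genes moved with the summed MSN markers and against the background rate. With the MSN marker sum r was 0.883 for Nr3c2 (rho 0.868, permutation p = 2e-05 and 0.00012) and 0.808 for Sgk1 (rho 0.8286, permutation p = 0.00018 and 0.00068). With the TMM-scaled background per kilobase r was -0.713 for Nr3c2 (rho -0.714, permutation p = 0.00742 and 0.0100) and -0.697 for Sgk1 (rho -0.701, permutation p = 0.00037 and 0.00476). The largest adjusted p over these 4 relations was 0.0100 by permutation. Without the 2 libraries farthest in the first measure the 4 values of r were 0.859, 0.812, -0.692 and -0.786, and the part of either measure in the correlation of Nr3c2 with Sgk1 was not tested.

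**Figure D5:**
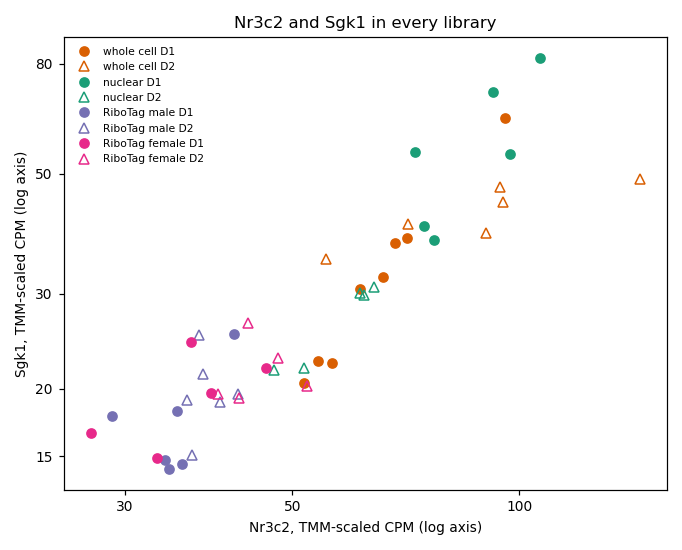
Nr3c2 against Sgk1, both as TMM-scaled CPM on log axes, in all 47 libraries, with filled circles for D1 and open triangles for D2 in the colour of the method. The whole cell D1 libraries (r = 0.991) rise along a line, with 1 library at 95.7 and 63.4 CPM far from the other 7.

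The genes whose log2 CPM followed each member most closely over all 47 libraries were taken from 12599 genes. For Nr3c1 these were Cpeb4 (r = 0.967), Cntn1 (0.965) and Cdc42bpa (0.958), and for Nr3c2 they were Elmo1 (0.971), Ssbp2 (0.969) and Galnt13 (0.966). For Sgk1 they were Ryr3 (0.959), Erc2 (0.955) and Negr1 (0.954), and for Per1 they included Ptprn (0.972) and Myo18a (0.969). Tsc22d3 had weaker neighbours, Appl2 (0.806), Plcl1 (0.805) and Msi1 (0.805), and Fkbp5, which differed least between methods, the weakest, Pacsin2 (0.636), Stk24 (0.607) and Klc3 (0.595). These values describe 47 libraries that share method, depth and composition within a group, and no test was made.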

How the data were processed

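The deposited table held raw counts of fragments per gene for 49 samples, which the authors made with featureCounts from HISAT2 2.0.5 alignments to GRCm38. Per the study's methods, fragments anywhere in a gene body were counted without regard to strand, fragments over several genes were counted for each, and multimapping reads were dropped. The members and gene lists were chosen with earlier results of these data known.

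Counts were tested with edgeR 4.0.16 (quasi-likelihood, TMM, Benjamini-Hochberg over all genes tested; R 4.3.3). Within a method, genes needed a CPM above 1 in at least 2 libraries and an FPKM over the gene span of at least 1 in 1 library and at most 50000 in all (nuclear, whole cell), or at least 0.1 in 2 (RiboTag). Method comparisons used 1 fit of all male groups with the first filter only. Library sizes for both filters came from DESeq2's size factors, not from library totals. DESeq2 1.42.0 was an alternative. Ratios (0.5 added to each count) used an exact permutation test, and correlations 100000 permutations within groups (scipy 1.17.1, Python 3.11.15). Of 52636 genes, 52489 matched the annotation that gave lengths. Intervals reflect the spread between mice. The scripts were tested on simulated data.

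The text names the 6 members, up to 3 called genes with the largest change in each direction per list and D2 vs D1 comparison, and the 3 protein-coding genes closest to each member among those with a median CPM of at least 1 (prior count 1), and a few results that this rule would name are not reported here. The lanes of whole cell D2 library 3 differed by sampling noise only (chi-square per degree of freedom 1.04, against at least 2.25 in other pairs) and were summed. The library with conflicting labels, which a column names a repeat of whole cell D1 library 1, was left out of the main fits. Alternatives were another scaling or tool, no FPKM filter, subtraction of the background rate, a replicate block, and leaving out libraries.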

Additional observations from a re-analysis of the deposited data

Results flagged for a closer look

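In groups of 4 to 10 libraries, 5 of 56 sets of values held 1 library far from the rest, where chance gives about 1 in 20. Whole cell D1 library 6 was far above the others for both Nr3c2 (95.7 CPM against 51.8 to 71.0) and Sgk1 (63.4 against 20.5 to 38.0). Sgk1 was at 25.3 CPM in RiboTag male D1 library 1, against 14.2 to 18.2 in the others, and that library is among those whose Xist and Y-linked counts went against the label. Nr3c1 was at 33.4 CPM in RiboTag male D1 library 5, against 36.6 to 38.4. Tsc22d3 was at 3.36 CPM in RiboTag female D1 library 2, against 2.50 to 2.62.

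Under TMM, the D2 to D1 difference changed with the method for 4 members by edgeR's interaction test. All of these values turned in sign with total counts as the scale. For nuclear minus whole cell the change was -1.07 for Nr3c1, -1.17 for Nr3c2, -1.51 for Sgk1 and -1.66 for Per1, where 15.8% of all genes were called lower. For RiboTag minus nuclear it was 1.11 for Nr3c1, 0.78 for Nr3c2, 1.31 for Sgk1 and 1.22 for Per1, where 12.9% of all genes were called higher. These share the nuclear libraries with the first set, and none was called without the RiboTag libraries against their label.

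The library with conflicting labels entered no main comparison, only alternatives of the whole cell one. Of its 7876138 counts, Nr3c1 had 544, Nr3c2 1777, Fkbp5 518, Sgk1 866, Per1 202 and Tsc22d3 84. Whole cell D1 library 1, which its column name points to, had 820, 3072, 930, 1672, 435 and 122 counts of the same genes. In the conflicting library Drd1 had 2352 and Drd2 161 counts.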

How the results depend on the processing

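Of the members' log2 values, 302 of 311 stayed on their side of the threshold when 1 library was left out; 27 of the 311 changed sign, all of them uncalled both ways. Under other settings 345 of 423 stayed on their side with no called value turning, and 66 changed sign, 28 of them called in at least 1 setting. Between cell types 0 members were called in any set, and this moved in nuclear libraries to 4 without the FPKM filter, to 1 when scaled on the genes that pass it and to 1 (Per1, 0.57) with total counts. In whole cell libraries it moved to 2 with DESeq2 and to 1 with its size factors, and ran from 0 to 1 over left-out libraries. In nuclear libraries Nr3c2 was at -0.69 without the filter and 0.41 when scaled on the genes that pass it, and Per1 at -1.12 without the filter in place of 0.03.

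For nuclear against whole cell in D2, 3 members were called, against 1 with DESeq2, 1 with its size factors and 0 with total counts, and 1 to 3 over left-out libraries. For RiboTag against whole cell in D1, 4 became 2 without the libraries against their label. The 8 calls of interactions of method and cell type became 2 with total counts, 4 without the libraries against their label and 4 without the nuclear libraries where 10 genes hold 60% or more, and were 6 to 8 over left-out libraries.

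Total counts turned these signs. For nuclear against whole cell in D1, Nr3c1 was at -0.80, Nr3c2 at -0.70, Sgk1 at -0.38 and Tsc22d3 at -0.24. For RiboTag, Nr3c1, Fkbp5 and Per1 were at -2.91, -3.57 and -1.52 against whole cell in D1, -2.59, -3.12 and -1.71 in D2, -2.11, -2.33 and -1.59 against nuclear in D1, and -2.32, -3.58 and -1.81 in D2. The interactions of Nr3c1, Nr3c2, Sgk1 and Per1 were 0.53, 0.41, 0.085 and 0.034 for nuclear minus whole cell and -0.21, -0.49, -0.045 and -0.22 for RiboTag minus nuclear. With the background subtracted, Tsc22d3 was at 4.01 for RiboTag against whole cell in D1 and 1.14 against nuclear in D2. Total counts move the median gene by construction, and the cause of the others was not tested.

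Calls over all genes moved too: for nuclear D2 against D1 from 1484 (526 higher, 958 lower) to 8082 (1725, 6357) without the filter, 12318 (11272, 1046) when rescaled, 2609 (2218, 391) with total counts, 2209 (957, 1252) with DESeq2, 2268 (1218, 1050) with the background subtracted and 779 without the nuclear libraries above, and were 464 to 886 without 1 of the D2 libraries. For whole cell they moved from 176 (54, 122) to 718 (459, 259) with DESeq2, 215 (146, 69) with its size factors, 709 (59, 650) with total counts, 369 with the conflicting library kept, 522 with lanes apart, and 35 or 25 without the filter, and were 59 to 638 over left-out libraries. RiboTag male had 631, or 298 without the libraries against their label, and female 319 (139, 180), or 686 (57, 629) with total counts. Female against male in D1 moved from 0 to 1451 with total counts, 7 without the libraries against their label and 46 without female D1 library 4, and in D2 from 7 to 22 with DESeq2, 4 with total counts and 12 without female D2 library 1. For the methods, nuclear against whole cell had 5764 in D1 and 6013 in D2, or 19751 (410, 19341) and 3076 (1194, 1882) with total counts, where RiboTag had at most 563 higher against at least 27135 lower in each comparison. Interactions had 6555 (1822, 4733) for nuclear minus whole cell, with 17607 (17378, 229) under total counts, 7183 (3696, 3487) under DESeq2 size factors, 2863 without the nuclear libraries above and 4194 without nuclear D2 library 5. For RiboTag minus nuclear they had 4358 (3867, 491), with 3251 (143, 3108) under total counts, 12 without the libraries against their label, 781 without the nuclear ones and 2617 without nuclear D2 library 5. For RiboTag minus whole cell they had 26, with 100 by DESeq2 and 3 without the libraries against their label.

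Equal numbers did not pair the libraries: same-numbered libraries correlated at -0.477 to 0.220 in whole cell and -0.0543 to 0.0930 in RiboTag male, with 0 of 6 and 1 of 6 closest to their own number. With a replicate block 0 members were called in either set, with whole cell Per1 at 0.43 (adjusted p = 0.235), Nr3c2 at 0.41, Sgk1 at 0.35 and Nr3c1 at -0.19, and RiboTag male Per1 at 0.17. No paired analysis was possible in nuclear and RiboTag female libraries because the nuclear D2 and female RiboTag columns carry no number of the labels. Depth limited Tsc22d3 above all, with 11 to 46 counts on ribosomes, and 5 to 8 libraries per group limit the rest.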
